A study of Bos taurus with 24 samples.

Results

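The insulin-like growth factor (IGF) genes were followed in cultured dermal fibroblasts, which lay down the connective tissue of skin, from Angus (beef) and Holstein (dairy) heifers. Taken by gene symbol, they were 10 genes of 27371 symbols in the tables: the ligands IGF1 and IGF2, the receptors IGF1R and IGF2R, the binding proteins IGFBP2, IGFBP3, IGFBP4, IGFBP5 and IGFBP6, and the growth hormone receptor GHR. Each symbol stood on 1 row of the table, so no measured value was needed to pick the rows. The list of genes itself was drawn up with earlier results of these data known. Cultures from 4 Angus and 4 Holstein heifers of a common age, chosen at random from a larger pool of cultures, were sampled at 0 h, before they received lipopolysaccharide (LPS, from the outer membrane of Gram-negative bacteria; 100 ng/ml), then 2 h and 8 h later, which gave 24 samples in 6 groups of 4. All groups had been revived from frozen stocks and grown in medium with fetal bovine serum and a supplement of insulin, transferrin and selenium, and none carried a genetic change. Each sample was the pooled lysate of duplicate wells of 1 animal's culture. No culture was kept without LPS to 2 h or 8 h, so an effect of LPS and an effect of time in culture cannot be told apart.

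IGF1 and IGF2 are secreted growth factors. Both signal through IGF1R, a receptor tyrosine kinase, whereas IGF2R binds IGF2 and carries it to the lysosome without signalling as a kinase. The IGF binding proteins hold the ligands outside the cell and release them when proteases cleave the binding protein. Growth hormone acts through GHR and is the main inducer of IGF1 in the liver, while fibroblasts are known as a source of binding proteins in connective tissue.

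Of the 8 genes that could be tested, 2 were called between breeds at 2-fold or more. Both encode binding proteins, as do most of the 8. Over all rows tested, 3.83%, 4.46% and 3.25% were called at 0, 2 and 8 h. IGFBP3 was higher in Holstein cultures at all 3 hours, by 2.39-, 2.52- and 2.22-fold at 0, 2 and 8 h. IGFBP4 was lower in them, by 2.12- and 2.21-fold at 0 and 2 h and by less than 2-fold at 8 h. Without Holstein animal 2, IGFBP3 was under 2-fold at each hour. Without Angus animal 4, IGFBP4 was under 2-fold at 0 and 2 h. None of the 8 was called at 2-fold or more after LPS, where 2.82% of all rows were at 2 h and 1.42% at 8 h. Within animals, however, IGF1R, IGF2R, GHR, IGFBP2, IGFBP3 and IGFBP5 were each lower at 8 h than at 0 h in all 8 cultures. The same held for 14.0% of all rows. IGFBP5 fell by more than 2-fold at 8 h in Angus animal 4 and Holstein animals 2 and 3. Messages for the ligands were at low levels, with no more than 84 counts of either in any sample.

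The summed counts per sample ranged from 51014538 to 104406293, and levels are counts for each 1000000 of a library's total (CPM), after trimmed mean of M-values (TMM) scaling. A count of 3, taken as the detection limit at this depth, corresponded to 0.0287 to 0.0588 CPM. The collagen gene COL1A1 stood apart in how its reads were counted in 4 libraries, those of Holstein animals 2 and 4 and of Angus animal 4 at 0 h and that of Angus animal 3 at 2 h. A count of it covered 66.2 to 67.1 bases there and 112 to 119 bases in the remaining 20 libraries. The IGF genes did not show this split: IGFBP3, for example, had 75.7 to 76.2 covered bases per count in those 4 libraries and 75.8 to 77.9 in the rest, and IGFBP4 had 84.9 to 86.7 and 85.6 to 87.3. Fibroblast markers had the highest sum of the marker lists in every library. Their 10 genes summed to 44635 to 96486 CPM for Angus and 77269 to 140207 CPM for Holstein. COL1A1 is among them, so these sums include its other counting in 4 libraries. All 5 leukocyte markers stayed under 1 CPM in every sample. The summed levels of the other lists were, for Angus and Holstein cultures in turn, 0.45 to 0.91 and 0.79 to 14.7 CPM for 6 keratinocyte markers, with KRT1 at 0 counts throughout, 0.96 to 2.05 and 1.08 to 3.50 CPM for 5 endothelial markers, and 2.04 to 3.29 and 1.48 to 3.48 CPM for 4 melanocyte markers. They were 208 to 445 and 220 to 400.0 CPM for 4 smooth muscle and pericyte markers, mostly from the calponin gene CNN1, 10.9 to 25.7 and 6.60 to 17.0 CPM for 4 adipocyte markers, and 2.33 to 6.92 and 4.59 to 7.89 CPM for 3 Schwann cell markers. The part of these markers in the breed differences was not tested. In such bulk samples, fewer cells of a type and less RNA per cell cannot be told apart.

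**Figure D1:**
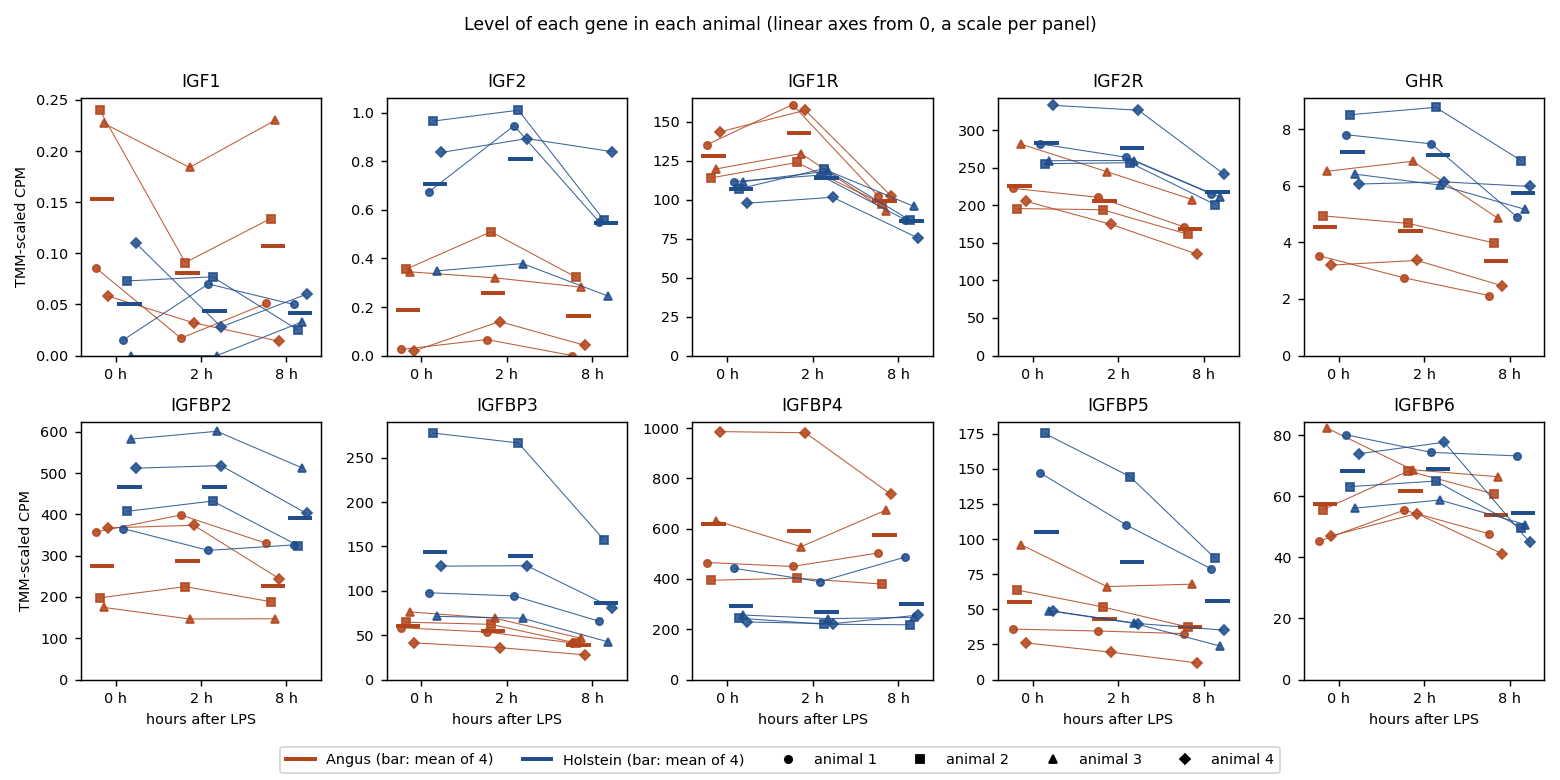
Level of each of the 10 genes in TMM-scaled CPM (vertical axes, linear from 0, a scale per panel) at 0, 2 and 8 h after LPS, with 1 point per culture, lines joining the samples of an animal, and bars for the mean of 4 animals of a breed. IGFBP3 lies higher in Holstein cultures and IGFBP4 higher in Angus cultures, and the lines of IGF1R, IGF2R, GHR, IGFBP2, IGFBP3 and IGFBP5 all end below their level at 0 h.

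The ligand genes stood at low levels. IGF1, on chromosome 5 from 66532879 to 66604699 (build UMD v3.1, minus strand), had 0 to 22 counts per sample and 156 counts in all 24 samples. Its level at 0 h was 0.086, 0.240, 0.227 and 0.058 CPM in Angus animals 1 to 4 and 0.015, 0.073, 0 and 0.110 CPM in Holstein animals 1 to 4. The level of 0 in Holstein animal 3, found also at 2 h, allowed up to 0.0329 CPM at 0 h and 0.0371 CPM at 2 h, so IGF1 was not measurable there at this depth rather than shown to be absent. The breeds overlapped at every hour.

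IGF2, on chromosome 29 from 50046626 to 50065231 (plus strand), had 0 to 84 counts per sample. At 0 h it stood at 0.025, 0.355, 0.345 and 0.019 CPM in Angus cultures and at 0.674, 0.966, 0.349 and 0.837 CPM in Holstein cultures. At 2 h the Angus levels were 0.066, 0.510, 0.320 and 0.140 CPM and the Holstein levels 0.947, 1.01, 0.379 and 0.894 CPM. At 8 h they were 0, 0.322, 0.282 and 0.042 CPM against 0.549, 0.559, 0.245 and 0.840 CPM, and the 0 in Angus animal 1 allowed up to 0.0415 CPM. Holstein animal 3 was the lowest of its breed at each hour and lay within the Angus range, and the Holstein culture was the higher in 15, 15 and 14 of 16 pairs of a Holstein with an Angus animal at 0, 2 and 8 h.

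Neither ligand passed the filter on low levels, which asked for at least 1 CPM in 50% or more of the samples compared, so no test of them stands in the main fits. In a fit without this filter, the log2 fold change of IGF2 between Holstein and Angus was 1.89 ± 0.76 (SE, FDR = 0.153), 1.62 ± 0.55 (FDR = 0.0454) and 1.74 ± 0.81 (FDR = 0.226) at 0, 2 and 8 h, and that of IGF1 was -1.72 ± 0.84 (FDR = 0.26), -0.91 ± 0.92 (FDR = 0.601) and -1.33 ± 0.79 (FDR = 0.354). The FDR is the false discovery rate of the edgeR likelihood-ratio test, adjusted by Benjamini-Hochberg over all rows tested. The IGF2 span, with 809 counts over the 24 samples, is overlapped by 2 rows with a symbol, LOC100848519 with 4 counts and the microRNA gene MIR483 with 0. It is also overlapped by 2 rows without one, with 93 and 5610 counts. The latter row runs from 50061175 to 50127027, past the end of IGF2. How many of its reads lie within the IGF2 span cannot be told from the counts. The insulin gene INS, next to IGF2 on chromosome 29, had 0 counts in all samples. H19, the imprinted non-coding RNA gene downstream of IGF2, ranged at 0 h from 0.123 to 2.66 CPM among Angus and from 0.065 to 4.24 CPM among Holstein cultures, with no difference past the threshold at the hours where it was tested (FDR = 0.575 at 2 h and 0.15 at 8 h).

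Of the 10 genes, 8 passed the filter in every comparison. A gene was called when its FDR was under 0.05, its fold change at least 2 and its average level above 1 CPM. Between breeds, 2 of the 8 were called at 0 h, where 3.83% of all 20385 rows tested were called. At 2 h the count was 2 (background 4.46% of 20184 rows), and at 8 h it was 1 (background 3.25% of 20679 rows). By FDR alone, 3, 4 and 4 of the 8 passed, against 13.8%, 20.1% and 16.5% of all rows. The median log2 fold change of the 8 genes was 0.49, 0.55 and 0.47 at 0, 2 and 8 h, where that of all rows was -0.0022, -0.0086 and 0.0057. The 3 hours are samples of the same 8 animals and are not independent of each other.

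IGFBP3 encodes the main carrier of IGF1 in blood, which also binds IGFs in the pericellular space. It lies on chromosome 4 from 76705105 to 76713511 (plus strand). Its level at 0 h was 58.3, 64.6, 76.2 and 41.3 CPM in Angus animals 1 to 4 and 97.8, 278, 71.2 and 128 CPM in Holstein animals 1 to 4. Only Holstein animal 3 fell within the Angus range. At 2 h the Angus levels were 53.5, 62.2, 68.9 and 36.0 CPM and the Holstein levels 94.2, 267, 69.03 and 128 CPM, so that the breeds did not overlap, although Holstein animal 3 and Angus animal 3 were nearly level. At 8 h the levels were 41.3, 41.0, 46.6 and 27.8 CPM against 65.6, 158, 42.5 and 81.0 CPM. Angus animal 4 was the lowest and Holstein animal 2 the highest culture at each hour, and the spread within Holstein, 3.90-fold between its lowest and highest animal at 0 h, was wider than that within Angus, 1.84-fold.

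The log2 fold change of IGFBP3 was 1.26 ± 0.39 (SE, FDR = 0.016), 1.33 ± 0.39 (FDR = 0.00834) and 1.15 ± 0.36 (FDR = 0.0162) at 0, 2 and 8 h, with 4 animals per breed. Without Holstein animal 2 it was 0.72 (FDR = 0.0476), 0.82 (FDR = 0.029) and 0.69 (FDR = 0.0557), in each case under 2-fold. Without Angus animal 1 the FDR was 0.0698 at 0 h and 0.0597 at 8 h, and without Angus animal 4 it was 0.0864 and 0.0855. By the quasi-likelihood F test it was 0.0742 at 0 h and 0.0661 at 8 h, and by DESeq2 0.0564 at 0 h. Without the 3 libraries with another COL1A1 counting at 0 h, which are the lowest Angus and the 2 highest Holstein cultures for this gene, it was 0.35 (FDR = 0.567) over 3 Angus and 2 Holstein animals. At 8 h, where no library had been counted in that way, the same 3 animals again held these ranks.

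IGFBP4 encodes a small binding protein that blocks IGF action until the protease PAPPA cleaves it. It lies on chromosome 19 from 41326678 to 41338267 (plus strand). Its level at 0 h was 466, 395, 632 and 987 CPM in Angus animals 1 to 4 and 442, 244, 257 and 229 CPM in Holstein animals 1 to 4. Of the 4 Holstein cultures, 3 lay close together below every Angus culture, and Holstein animal 1 lay among the Angus cultures. At 2 h the levels were 449.9, 403, 529 and 982 CPM against 389, 220.0, 242 and 222 CPM, with no overlap. At 8 h they were 503, 379.8, 675 and 738 CPM against 487, 218, 247 and 256 CPM, and Holstein animal 1 again lay above 1 Angus culture.

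For IGFBP4 the log2 fold change was -1.08 ± 0.31 (SE, FDR = 0.00862) at 0 h and -1.15 ± 0.31 (FDR = 0.00369) at 2 h. At 8 h it was -0.92 ± 0.29 (FDR = 0.0167), short of 2-fold. Without Angus animal 4, the highest culture, it was -0.77 (FDR = 0.0463) at 0 h and -0.78 (FDR = 0.00967) at 2 h, and without Holstein animal 1 it was -1.34 and -1.38 at these hours and -1.24 (FDR = 1.93e-05) at 8 h. At 0 h the FDR was 0.0526 without Holstein animal 2, 0.0587 without Holstein animal 4 and 0.0617 by the F test. Without the 3 libraries with another COL1A1 counting at 0 h it was -0.51 (FDR = 0.564). An interval without a gene symbol just downstream of IGFBP4, from 41338268 to 41349679, was lower in Holstein as well, by 1.49 ± 0.39 at 0 h on the log2 scale (log2 fold change -1.49, FDR = 0.00406), and the root mean square difference between its log2 levels and those of IGFBP4, after each row was centred on its own mean over the 24 samples, was 0.25. The library kit does not mark the strand, so reads from the strands of such an interval cannot be told apart.

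IGFBP2, a binding protein with preference for IGF2, and IGFBP5, a binding protein that adheres to extracellular matrix, lie side by side on chromosome 2 in convergent orientation. IGFBP2 spans 105338358 to 105367086 (plus strand) and IGFBP5 spans 105378990 to 105397646 (minus strand). The level of IGFBP2 at 0 h was 357, 198, 175 and 367 CPM in Angus animals 1 to 4 and 366, 408, 583 and 512 CPM in Holstein animals 1 to 4. Angus animals 1 and 4 were level with Holstein animal 1, and Angus animals 2 and 3 were lower. Between breeds the log2 fold change was 0.77 ± 0.27 (SE, FDR = 0.0379), 0.70 ± 0.33 (FDR = 0.117) and 0.79 ± 0.26 (FDR = 0.0202) at 0, 2 and 8 h, each under 2-fold.

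IGFBP5 differed between the lowest and the highest animal of a breed by 3.67-fold in Angus and 3.60-fold in Holstein cultures at 0 h. It stood then at 35.9, 63.7, 95.8 and 26.1 CPM in Angus animals 1 to 4 and at 147, 175, 48.96 and 48.7 CPM in Holstein animals 1 to 4. Holstein animals 1 and 2 lay above every Angus culture and Holstein animals 3 and 4 within the Angus range, a pattern seen again at 2 h and 8 h. Its breed difference was a log2 fold change of 0.92 ± 0.51 (SE, FDR = 0.24), 0.95 ± 0.49 (FDR = 0.165) and 0.58 ± 0.53 (FDR = 0.497) at 0, 2 and 8 h, and the 95% interval at 0 h ran from -0.08 to 1.92, which held both no difference and one of 2-fold.

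The 11903 bases between the convergent ends of IGFBP2 and IGFBP5, from 105367087 to 105378989, form a row without a gene symbol that held 608116 counts over the 24 samples, close to the 652779 counts of IGFBP2 and above the 117505 counts of IGFBP5. The counts of this interval were 4.47 to 7.14 times those of IGFBP5 in every sample, a range of 1.60-fold, and 0.29 to 2.54 times those of IGFBP2, a range of 8.74-fold. On the log2 scale, after each row was centred, the root mean square difference over the 24 samples was 0.154 between the interval and IGFBP5 and 1.08 between the interval and IGFBP2. Its levels at 0 h were 202, 339.5, 444 and 129 CPM in Angus animals 1 to 4 and 683, 882, 288 and 225 CPM in Holstein animals 1 to 4, which is the order of the 8 cultures for IGFBP5 at that hour. The interval and the genes share libraries and depth, and no annotation beyond the tables was used here to say which transcript the interval belongs to.

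**Figure D2:**
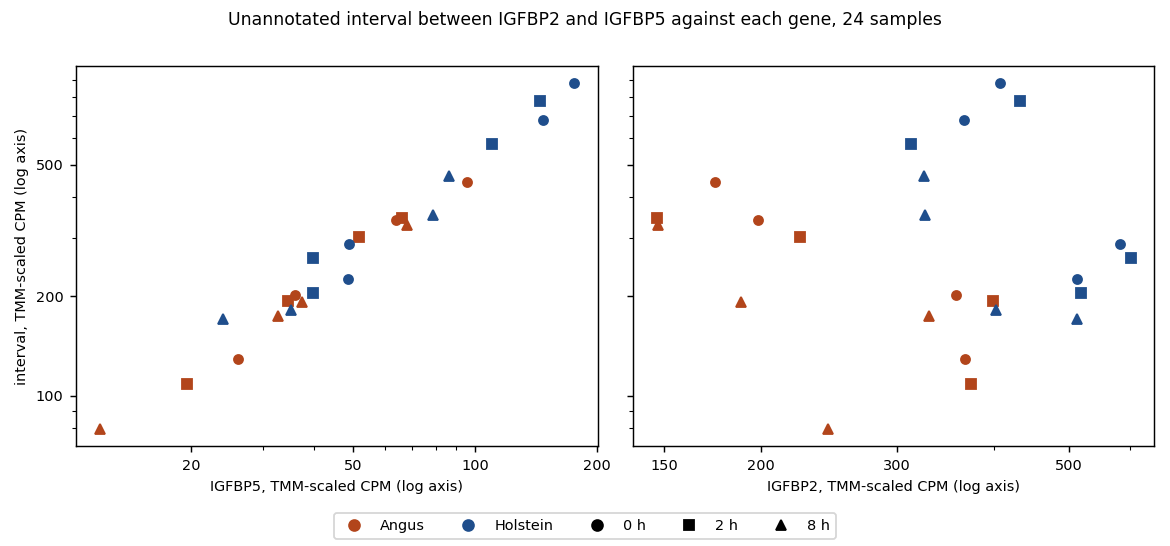
Level of the interval without a gene symbol between IGFBP2 and IGFBP5 (vertical axis) against that of IGFBP5 (left) and IGFBP2 (right), in TMM-scaled CPM on log axes, 1 point for each of 24 samples, coloured by breed and shaped by hour. The points follow a line against IGFBP5, with interval counts 4.47 to 7.14 times those of the gene, and scatter against IGFBP2.

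IGFBP6, a binding protein with strong preference for IGF2, lies on chromosome 5 from 27044008 to 27047853 (minus strand). It differed by less than the spread between animals at every hour, with 0 h levels from 45.3 to 82.3 CPM among Angus and from 56.1 to 80.2 CPM among Holstein cultures. Its log2 fold change was 0.25 ± 0.21 (SE, FDR = 0.476), 0.15 ± 0.14 (FDR = 0.477) and 0.02 ± 0.20 (FDR = 0.965) at 0, 2 and 8 h, and the 95% interval at 8 h, from -0.38 to 0.41, held no 2-fold difference. IGFBP1, the neighbour of IGFBP3 on chromosome 4 and a liver product, had 5 counts over all samples.

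The receptors differed between breeds by less than 2-fold. IGF1R, on chromosome 21 from 7967718 to 8268093 (plus strand), stood at 135, 114, 119.6 and 143 CPM in Angus animals 1 to 4 and at 112, 107, 111 and 97.7 CPM in Holstein animals 1 to 4 at 0 h. Every Holstein culture was below every Angus culture at 0 h and at 2 h, and at 8 h the breeds overlapped. In the fits its log2 fold change was -0.26 ± 0.11 (SE, FDR = 0.109), -0.33 ± 0.13 (FDR = 0.0474) and -0.19 ± 0.10 (FDR = 0.208). IGF1R was the only gene of the 8 without overlap at 0 h, where 17.3% of all rows had none.

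IGF2R, on chromosome 9 from 97638102 to 97741388 (plus strand), stood at 211, 194, 245 and 175 CPM in Angus animals 1 to 4 and at 264, 257, 259.6 and 327 CPM in Holstein animals 1 to 4 at 2 h. All Holstein cultures were above all Angus cultures at this hour, with Holstein animal 4 apart from the other 3. The log2 fold change was 0.32 ± 0.15 (SE, FDR = 0.145), 0.42 ± 0.15 (FDR = 0.0247) and 0.37 ± 0.14 (FDR = 0.062) at 0, 2 and 8 h. At 2 h, 4 of the 8 genes (IGF1R, IGF2R, IGFBP3 and IGFBP4) did not overlap between breeds, where this held for 24% of all rows.

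GHR, on chromosome 20 from 31890736 to 32064200 (minus strand), stood at 2.12, 3.98, 4.84 and 2.46 CPM in Angus animals 1 to 4 and at 4.90, 6.89, 5.16 and 5.97 CPM in Holstein animals 1 to 4 at 8 h. Every Holstein culture was above every Angus culture at this hour, narrowly so for Holstein animal 1 and Angus animal 3, and GHR was the only gene of the 8 without overlap there, where 20.4% of all rows had none. The log2 fold change was 0.66 ± 0.25 (SE, FDR = 0.0608), 0.68 ± 0.29 (FDR = 0.0849) and 0.78 ± 0.28 (FDR = 0.0426) at 0, 2 and 8 h. Its span is shared in part with LOC100848533 on the other strand (31848952 to 31965708), which held 13147 counts against 10073 for GHR, or 0.92 to 1.51 times the counts of GHR in each sample. In the shared stretch, from 31890736 to 31965708, the reads of the 2 genes cannot be told apart.

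**Figure D3:**
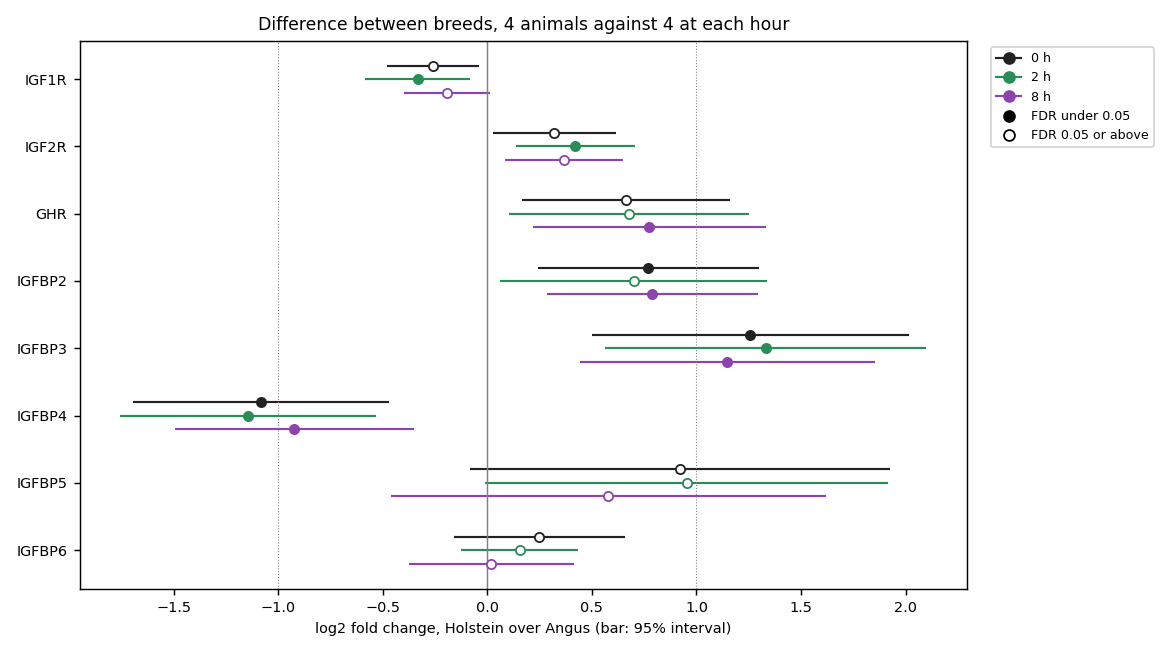
Log2 fold change of Holstein over Angus (horizontal axis) for the 8 genes tested at 0, 2 and 8 h, with bars for the 95% interval, filled where the FDR was under 0.05, and dotted lines at a 2-fold difference. IGFBP3 lies at 1.15 to 1.33 and IGFBP4 at -1.15 to -0.92, and the bars of IGFBP5 are the widest.

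For IGF2R, IGFBP2, IGFBP3, IGFBP4 and IGFBP5 the ranking of the animals was largely the same at the 3 hours. Of the 12 pairs of animals of a breed, 11 kept their order at 0, 2 and 8 h for IGFBP3, IGFBP5 and IGF2R and 10 for IGFBP2 and IGFBP4, against 7 for IGF1R and IGFBP6 and 8 for GHR. Such counts were not made over all rows. For the rows whose centred log2 levels over the 24 samples came closest to those of IGFBP3, the root mean square difference was 0.31 for EXD1, 0.39 for PODN, a secreted matrix proteoglycan gene, and 0.43 for TLR4, the LPS receptor gene, among 12889 rows with a symbol whose median difference was 0.85. The level of IGFBP3 itself varied by 0.82 on this scale, and the samples share animals and libraries.

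After LPS, with both breeds together (8 animals at each hour), none of the 8 genes was called by edgeR at 2 h, where 2.82% of 20157 rows were, and none at 8 h, where 1.42% of 20368 rows were. The F test and DESeq2 called none either, and the unadjusted p was under 0.05 for 0 of the 8 genes at 2 h and for 2 at 8 h. By FDR alone, none of the 8 passed at 2 h (background 22.0%), and IGF1R and IGF2R passed at 8 h (background 12.8%), both lower. At 8 h the median log2 fold change of the 8 genes was -0.36, where that of all rows was -0.0072. The labels tie the 3 samples of an animal together, and in a fit with the animal as a block 2 of the 8 had an FDR under 0.05 at 2 h (47.5% of all rows) and 7 of the 8 at 8 h (40.7% of all rows), all 7 lower. With the block and the quasi-likelihood F test the counts were 4 at 2 h (49.4% of all rows) and 6 at 8 h (42.2% of all rows). The lowest FDR of the 8 genes was then 0.000103 at 2 h and 1.41e-06 at 8 h. By the likelihood-ratio test with the block it was 4.95e-09 and 3.37e-39. The FDRs with the block given below are from the likelihood-ratio test unless stated. No gene of the 8 reached 2-fold in any of these fits.

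IGF1R was slightly higher at 2 h and lower at 8 h than at 0 h in every animal. Its change from 0 h within the animal, on the log2 scale, was 0.25, 0.12, 0.12 and 0.13 in Angus animals 1 to 4 and 0.05, 0.17, 0.09 and 0.05 in Holstein animals 1 to 4 at 2 h. At 8 h it was -0.40, -0.23, -0.37 and -0.48 in Angus and -0.36, -0.30, -0.22 and -0.37 in Holstein cultures, so that no animal of either breed went the other way. Of all rows, 17.8% were higher in all 8 animals at 2 h and 14.0% lower in all 8 at 8 h. The fitted log2 fold change was 0.12 ± 0.11 (SE, FDR = 0.511) at 2 h, or 0.12 ± 0.04 (FDR = 0.00933) with the animal as a block, and -0.35 ± 0.09 (FDR = 0.00227) at 8 h. The blocked value at 2 h had an FDR of 0.185 without the animals that had a library with another COL1A1 counting.

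An interval without a gene symbol downstream of IGF1R, on chromosome 21 from 8268094 to 8278062, held 108702 counts against 213651 for IGF1R over the 24 samples. Its log2 fold change was 0.29 ± 0.09 (SE, FDR = 0.0119) at 2 h and -0.50 ± 0.09 (FDR = 9.19e-07) at 8 h. The ratio of its counts to those of IGF1R had a median of 0.509 at 0 h, 0.568 at 2 h and 0.453 at 8 h, with ranges of 0.445 to 0.582, 0.515 to 0.595 and 0.394 to 0.513. The range at 0 h overlapped those at 2 h and 8 h, and the ranges at 2 h and 8 h did not overlap.

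IGF2R fell in all 8 animals at 8 h, by 0.28 to 0.60 on the log2 scale (mean change -0.40 ± 0.10, SD, n = 8), with a fitted log2 fold change of -0.40 ± 0.13 (SE, FDR = 0.0265). Without the libraries with another COL1A1 counting the FDR was 0.109 (log2 fold change -0.36), and with the animal as a block it was 3.94e-15.

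The most negative log2 fold changes of the 8 genes at 8 h were those of IGFBP5 and IGFBP3. The change of IGFBP3 at 8 h was -0.50, -0.66, -0.71 and -0.57 in Angus animals 1 to 4 and -0.58, -0.82, -0.74 and -0.66 in Holstein animals 1 to 4 on the log2 scale. These changes lay between -0.82 and -0.50 in cultures whose level at 0 h ran from 41.3 to 278 CPM. The fitted log2 fold change was -0.70 ± 0.39 (SE, FDR = 0.264) with no block, where the spread between animals enters the error, and -0.66 ± 0.05 (FDR = 3.37e-39) with the animal as a block. Its change at 2 h was small, with a mean of -0.08 ± 0.07 (SD, n = 8) and a lower level than at 0 h in 7 of 8 animals.

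IGFBP5 changed by -0.06, -0.30, -0.53 and -0.42 at 2 h and by -0.13, -0.77, -0.50 and -1.13 at 8 h in Angus animals 1 to 4. In Holstein animals 1 to 4 it changed by -0.42, -0.28, -0.29 and -0.29 at 2 h and by -0.90, -1.02, -1.03 and -0.47 at 8 h. It was lower in all 8 cultures at both hours, least so in Angus animal 1, where 18.3% of all rows were lower in all 8 at 2 h. With no block the log2 fold change was -0.34 ± 0.43 (SE, FDR = 0.684) at 2 h and -0.78 ± 0.42 (FDR = 0.241) at 8 h, and with the animal as a block it was -0.33 ± 0.05 (FDR = 4.95e-09) and -0.75 ± 0.11 (FDR = 3.34e-11).

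GHR and IGFBP2 were also lower in all 8 animals at 8 h, with mean changes of -0.39 ± 0.23 and -0.26 ± 0.17 (SD, n = 8) on the log2 scale. Their FDR at 8 h was 0.394 and 0.6 with no block and 6.27e-05 and 0.000136 with the animal as a block. In all, 6 of the 8 genes were lower in every animal at 8 h, where this held for 14.0% of all rows. IGFBP6 was lower in 6 of 8 animals (blocked FDR = 0.0408, or 0.0571 with the F test), and IGFBP4 was higher in 4 and lower in 4 (mean change -0.02 ± 0.20, blocked FDR = 0.774).

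**Figure D4:**
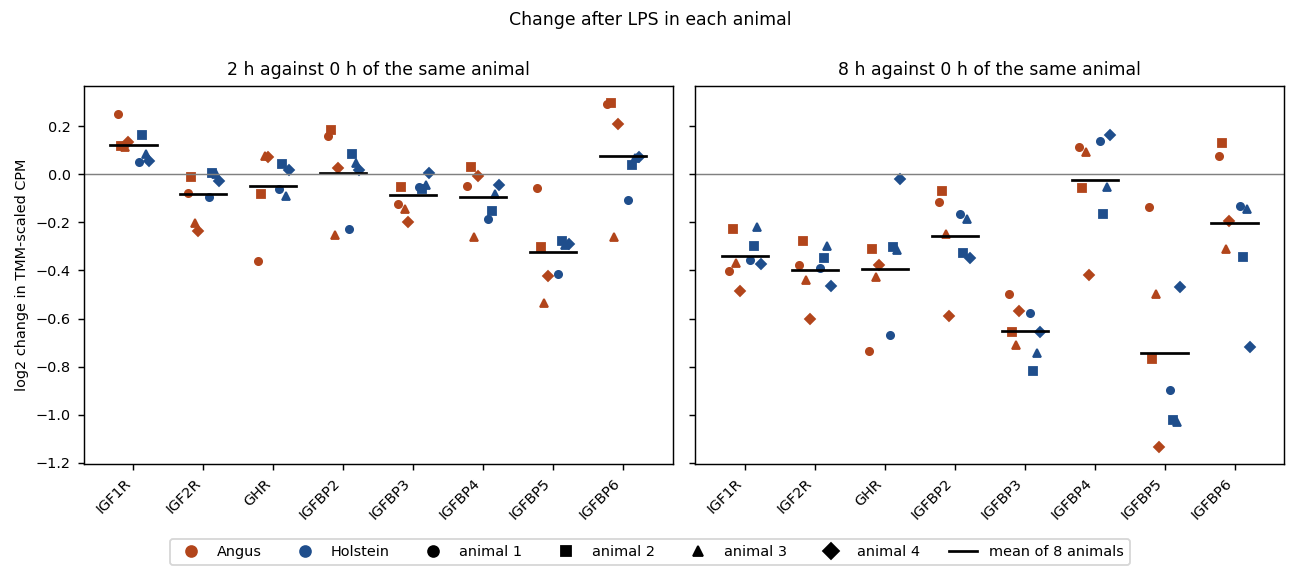
Log2 change in TMM-scaled CPM from 0 h of the same animal (vertical axis) at 2 h (left) and 8 h (right) for the 8 genes tested, 1 point per animal, coloured by breed and shaped by animal, with bars for the mean of 8 animals. IGF1R lies above 0 in all animals at 2 h and below 0 in all at 8 h, where IGF2R, GHR, IGFBP2, IGFBP3 and IGFBP5 also lie below 0 in all animals and IGFBP4 lies on both sides.

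No difference between the breeds in the change after LPS was detected for these genes. None of the 8 was called in the test of the breed by LPS interaction at 2 h (background 0.278%) or at 8 h (background 0.0982%), and none had an FDR under 0.05 with the animal as a block (background 4.28% at 2 h and 2.59% at 8 h), where the lowest FDR was 0.612 at 2 h and 0.514 at 8 h. With no block, the unadjusted p of the edgeR likelihood-ratio test was under 0.05 for 0 of the 8 genes at either hour, and the F test and DESeq2 called none. For IGFBP3 at 8 h, the change in Holstein minus that in Angus cultures was -0.09 on the log2 scale with the block (95% interval -0.27 to 0.08). For IGF1R it was 0.05 (95% interval -0.12 to 0.23), and for IGFBP5, the widest, -0.23 (95% interval -0.62 to 0.16). These intervals held no 2-fold difference in response for these 3 genes, but they cover the spread between these samples only. They do not show that the responses were equal. Without the libraries with another COL1A1 counting at 0 h, the value for IGFBP3 at 8 h was 0.80, outside its interval above. That fit had no block and kept the same animals at 8 h.

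Other genes of the pathway were counted from a list of 46 by role, of which 45 were in the tables and 34 to 36 were tested. Between breeds, 2 of 34 were called at 0 h (3.83% of all rows), 4 of 36 at 2 h (4.46%) and 2 of 35 at 8 h (3.25%), all higher in Holstein cultures, and the median log2 fold change of the list was 0.10, 0.19 and 0.10. IGFBP7, a related secreted protein with weak affinity for IGFs, was the only other binding protein gene tested. At 0 h it stood at 3.76, 14.2, 18.6 and 4.99 CPM in Angus animals 1 to 4 and at 35.7, 66.3, 43.5 and 19.8 CPM in Holstein animals 1 to 4. Every Holstein culture was above every Angus culture. Its log2 fold change between breeds was 1.99 ± 0.52 (SE, FDR = 0.00415), 1.90 ± 0.54 (FDR = 0.00738) and 1.94 ± 0.53 (FDR = 0.00582) at 0, 2 and 8 h.

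IGF2BP2, which encodes a protein that binds IGF2 mRNA, was likewise higher in Holstein cultures. At 0 h it stood at 1.01, 2.78, 2.69 and 0.80 CPM in Angus animals 1 to 4 and at 6.45, 6.59, 4.31 and 9.87 CPM in Holstein animals 1 to 4, without overlap. The log2 fold change was 1.90 ± 0.44 (SE, FDR = 0.000841), 1.85 ± 0.56 (FDR = 0.0106) and 1.85 ± 0.51 (FDR = 0.0061) at 0, 2 and 8 h. Without the libraries with another COL1A1 counting at 0 h, the log2 fold change was 1.31 (FDR = 0.151) for IGF2BP2 and 1.70 (FDR = 0.115) for IGFBP7. By the F test the FDR was 0.0539 at 0 h and 0.0511 at 8 h for IGFBP7 and 0.0514 at 2 h for IGF2BP2, which had 0.0561 at 2 h without Holstein animal 4. At 2 h, FOXO3, a transcription factor that AKT holds out of the nucleus, lay between 1.84 and 3.96 CPM in Angus and between 5.21 and 6.12 CPM in Holstein cultures (log2 fold change 1.06 ± 0.24, FDR = 0.000305, or 0.91 without Angus animal 1). CISH, an inhibitor of STAT5 signalling, stood at 0.413 to 1.12 and 1.67 to 3.25 CPM (1.58 ± 0.33, FDR = 9.78e-05). Between breeds, CISH passed the filter on low levels at this hour alone. None of the proteases that cleave binding proteins, of the adaptors or of the kinases on the list was called between breeds.

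After LPS, 2 of 35 genes of the list were called at 2 h (2.82% of all rows), both lower, and 1 of 34 at 8 h (1.42% of all rows), higher. CISH did not pass the filter on low levels here and was not tested, whereas the paper lists it as higher at 2 h. Its level went from 0.747 to 0.861 CPM at 0 h to 1.67 to 3.25 CPM at 2 h in Holstein cultures. In Angus cultures it was 0.529 to 0.996 CPM and 0.413 to 1.12 CPM. At 2 h, STC2, a secreted inhibitor of PAPPA, fell from 6.04 to 9.06 CPM at 0 h to 2.46 to 3.11 CPM in Angus cultures and from 5.60 to 7.47 CPM to 3.06 to 4.34 CPM in Holstein cultures (log2 fold change -1.13 ± 0.15, FDR = 2.32e-12). PIK3R1, the regulatory subunit of phosphoinositide 3-kinase, fell at 2 h from 43.0 to 57.7 CPM to 15.5 to 21.6 CPM in Angus and from 34.7 to 53.0 CPM to 17.3 to 27.6 CPM in Holstein cultures (-1.22 ± 0.13, FDR = 1.71e-19), with no overlap between the hours. At 8 h PIK3R1 lay between 40.7 and 54.5 CPM in Angus and between 32.0 and 38.9 CPM in Holstein cultures, and STC2 at 6.18 to 8.50 and 4.60 to 5.37 CPM. SOCS2, an inhibitor of GHR signalling, rose at 8 h from 1.92 to 3.23 CPM to 3.07 to 6.65 CPM in Angus cultures and from 1.63 to 5.11 CPM to 7.19 to 9.74 CPM in Holstein cultures (log2 fold change 1.04 ± 0.28, FDR = 0.004), and it fell short of 2-fold without the libraries with another COL1A1 counting (0.84, FDR = 0.0753), without Holstein animal 2 (0.98) and without Holstein animal 4 (0.92).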

How the data were processed

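The 10 genes and the pathway and marker lists were chosen with earlier results of these data known. All 10 genes are named, and of the pathway list those called. Per the labels, polyadenylated RNA was prepared with an Illumina TruSeq RNA kit, a kind that does not mark the strand. The authors processed the reads with CASAVA 1.7 and NextGENe 2.3.4 on build UMD v3.1 and deposited raw whole-number read counts per row, with no normalization. The deposited mean coverage of each row served as a check on the counting alone. Each row is a whole gene span or an interval without a symbol (27550 and 32296 of 59846 rows; the latter held 12.28% to 20.53% of the counts), so exons and introns cannot be separated and levels are not compared between genes. Summed counts were 1.50 to 1.71 times the matched reads. Groups and animal numbers came from the labels.

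With edgeR 4.0.16 in R 4.3.3, rows at 1 CPM or more in at least 50% of the samples compared were scaled by TMM and tested by a likelihood-ratio test, each comparison on its own samples, with Benjamini-Hochberg adjustment over all rows and no animal block. The filter, test and adjustment follow the study's methods, in which neither a scaling nor a block is stated. Log2 fold changes used a prior count of 0.125, standard errors came from the fitted information matrix, and 95% intervals come from these errors and the normal distribution and cover the spread between these samples only. Alternatives were the F test, DESeq2 1.42.0, other scalings and filters, the replicate block and leaving out libraries or animals (56 refits). The block with the F test, the block without some animals and the alternatives for the pathway genes were chosen after seeing the data. The scripts were tested on simulated data. Sampling noise was exceeded in each of the 36 comparisons of 2 samples of a group. The samples of an animal deviated together from their group means across genes (mean r 0.626 to 0.69 between 0 h and 2 h, 0.578 to 0.66 between 0 h and 8 h, lowest 0.533), so the animal number pairs them. The values for different animals, -0.193 to -0.227, follow largely from centring on the mean of 4 and add no second observation. Methylation data were not used here.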

Additional observations from a re-analysis of the deposited data

Results flagged for a closer look

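In 4 of the 60 groups of 4 cultures examined (10 genes, 2 breeds and 3 hours), a culture stood apart from the other 3 by a gap whose share of the group's range exceeded Dixon's 95% critical value for 4 samples, which chance exceeds in about 1 in 20 groups. IGFBP4 in Holstein animal 1 was at 442.4 CPM at 0 h (the others 229 to 257 CPM), 389.3 CPM at 2 h (220.0 to 242 CPM) and 487.4 CPM at 8 h (218 to 256 CPM). These 3 groups are the same 4 animals. IGF2R in Holstein animal 4 was at 326.6 CPM at 2 h, where the others were at 257 to 264 CPM.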

How the results depend on the processing

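Holstein against Angus, 2 genes were called at 0 h (IGFBP3 and IGFBP4), 2 at 2 h (the same 2 genes) and 1 at 8 h (IGFBP3). At 0 h the count was 0 by the quasi-likelihood F test, 1 by DESeq2, 0 without the libraries with another COL1A1 counting and 0 to 2 when 1 animal was left out (0 without Angus animal 4 or Holstein animal 2). At 2 h it was 4 by FDR alone and 1 to 2 when 1 animal was left out. At 8 h it was 0 by the F test, 2 with libraries scaled by total counts only, 4 by FDR alone and 0 to 2 when 1 animal was left out (0 without Angus animal 4 or Holstein animal 2, and 2 without Angus animal 2, Angus animal 3 or Holstein animal 1). After LPS at 8 h the count of 0 became 2 by FDR alone. The cause of these shifts was not tested. The equal animal numbers of the 2 breeds name unrelated animals. A fit with this replicate block for the breed comparisons left the counts at 2, 2 and 1, with IGFBP3 at 1.10 and IGFBP4 at -1.04 at 0 h, and same-numbered animals of the breeds deviated with a mean correlation of -0.112, -0.08 and -0.09 across genes at 0, 2 and 8 h. For LPS and the interaction, where the block is the animal, it changed no call of the 8 genes beyond the FDR counts given with the results. Over all rows, the block raised the calls of the interaction by the likelihood-ratio test from 56 to 126 at 2 h and from 20 to 100 at 8 h. By the F test they went from 16 to 74 at 2 h and from 0 to 22 at 8 h.

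IGFBP3 was called in 10 of 16, 15 of 16 and 11 of 15 alternatives at 0, 2 and 8 h, with log2 fold changes of 0.35 to 1.48, 0.82 to 1.56 and 0.69 to 1.37, and IGFBP4 in 11 of 16, 15 of 16 and 3 of 15, with -1.34 to -0.51, -1.38 to -0.78 and -1.24 to -0.79. The FDR stayed under 0.05 in 7 of 16 alternatives for IGFBP2 at 0 h and 10 of 15 at 8 h, 5 of 15 for GHR at 8 h, 9 of 16 for IGF2R at 2 h, 5 of 16 for IGF1R at 2 h, and, after LPS at 8 h, 17 of 18 for IGF1R (0.0832 with total counts only) and 13 of 18 for IGF2R. Scaling by total counts moved the median of all rows to -0.10 at 0 h (Holstein against Angus) and to 0.11 for the interaction at 2 h. It gave 253 rows called higher and 526 lower at 0 h in place of 354 and 427, and 396 and 314 at 8 h in place of 460 and 213.

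Changes of direction occurred only for log2 fold changes that no fit called. With total counts they were IGFBP6 between breeds at 8 h (-0.0554), IGFBP2 (-0.0239) and IGFBP6 (-0.0129) after LPS at 2 h, IGFBP4 after LPS at 8 h (0.0109), and the interaction at 2 h for IGF1R (0.0265), IGFBP2 (0.0108), IGFBP4 (0.0138) and IGFBP6 (0.0285). Without the libraries with another COL1A1 counting they were IGFBP3 after LPS at 2 h (0.44), IGFBP4 after LPS at 8 h (0.0003, and 0.0456 with the animal as a block), the interaction at 2 h for IGFBP6 (0.0489) and that at 8 h for IGF1R (-0.0566), IGFBP2 (-0.18), IGFBP3 (0.80) and IGFBP4 (-0.42). With the block, by either test, the interaction of IGFBP2 at 8 h was -0.0052. When 1 animal was left out, the range ran from -0.15 to 0.13 for IGFBP6 between breeds at 8 h, from -0.0038 to 0.0474 for IGFBP2 after LPS at 2 h, and from -0.10 to 0.0492 for IGFBP4 after LPS at 8 h. For the interaction it ran from -0.084 to 0.11 for IGFBP5 and from -0.0381 to 0.0854 for GHR at 2 h, and from -0.0102 to 0.0853 for IGF2R, from -0.13 to 0.10 for IGFBP2 and from -0.0215 to 0.23 for IGFBP4 at 8 h. Depth limits IGF1 and IGF2, at no more than 84 counts per sample, and 4 animals per breed limit the rest.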
